A study of Mus musculus with 2 samples.

Results

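The fibroblast growth factor (FGF) family and the inhibitors that restrain its signal were examined in kidneys of mice at postnatal day 3, by genotype. Members were all probe sets on the array whose single gene symbol was Fgf or Fgfr with its number, Fgfrl1, or Spry, Spred or Dusp followed by a digit. This gave 109 of 45037 probe sets, for 55 of 20660 genes: 22 FGF ligands, 4 FGF receptors, 3 Sprouty genes, 3 Spred genes and 23 Dusp genes, of which 9 were MAP kinase phosphatases and 14 atypical phosphatases. Fgfrl1 and Spry1 were left out, since their probe sets named several genes, and Dusp5 was not analysed here.

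FGFs are secreted growth factors that bind receptor tyrosine kinases together with heparan sulfate and signal through Ras to the MAP kinase ERK. ERK signalling induces its own inhibitors: Sprouty and Spred proteins act upstream on the path from receptor to Raf, and MAP kinase phosphatases of the Dusp family remove phosphate from ERK, JNK and p38. In the developing kidney, FGF9 and FGF20 maintain nephron progenitors, FGF8 acts in the early nephron, FGFR2 serves the branching ureteric bud and SPRY1 restrains the outgrowth of that bud.

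The 2 samples were kidney RNA labelled wild type, with no strain named, and kidney RNA of the B6C3Fe a/a-bpck mutant, a model of polycystic kidney disease. Both were taken at the same age, and 1 array was read per genotype. The labels do not say which gene is mutated, how many animals gave each sample or what sex they were. Kidney transcripts were present in both arrays, among them Slc34a1 of the proximal tubule (intensity 1099 in wild type and 1374 in mutant). Transcripts not tied to the kidney also separated the samples. Of 11 adrenal and neuroendocrine markers, all counted whatever their intensity, 10 read lower in the mutant and Cyp11a1 higher (5.69 and 9.70), with a summed intensity of 673.7 and 85.6. Xist read 4.67 and 1113, and the 4 Y-linked genes read lower in the mutant, though not absent. Ddx3y read 394 and 84.2, Eif2s3y 280 and 63.8, Uty 126 and 25.8, and Kdm5d 80.1 and 16.25. Genotype and sex-linked expression therefore cannot be told apart here. With no replicates, no test was possible and every difference describes this pair of arrays.

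Values are dChip expression intensities on a linear scale, given for wild type first and mutant second. Differences are log2 mutant minus wild type, with a floor of 4.2, the 20th percentile over the pair of arrays, in place of anything lower. Counts cover genes with at least 1 array at 16.53 (the median of both arrays' values) or more, called the filter here, each read on its brightest probe set. A level cannot be set against that of another gene, because probe sets differ in how strongly they bind. As a yardstick for single values, the log2 differences of several probe sets of 1 gene varied with an SD of 0.13 at the median of 5269 genes and 0.47 at the 95th percentile. This spread lies between probes on the same 2 samples and holds no variation between animals.

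Most of the system differed little between the samples. Of the 55 member genes 34 passed the filter, 32 of them in both arrays, Dusp2 through the wild-type array alone and Dusp23 through the mutant array alone. Of these 34 genes 1 was at least 1.5-fold higher in the mutant, Dusp8, where 2.01% of all 13146 genes above the filter were. Likewise 1 was at least 1.5-fold lower, Dusp26, against 2.57% of all genes. Either way the members past 1.5-fold were 2 of 34, against 4.58% of all genes. None of the 34 reached 2-fold, against 0.525% of all genes higher, 0.517% lower and 1.04% either way. Within 1.2-fold lay 26 members, or 76.5%, close to the 78.9% of all genes. The median log2 difference of the 34 was -0.061, with a range of -0.79 to 0.73, and that of all genes -0.0082. By direction, 11 members were higher and 23 lower (67.6%, against 51.9% of all genes). With array medians set equal 19 were higher and 15 lower (44.1%, against 35.2% of all genes). No member probe set passed the criterion in the header of the authors' deposited table, a lower bound over 1.5-fold and a difference over 20, which 0.568% of all probe sets passed.

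**Figure D1:**
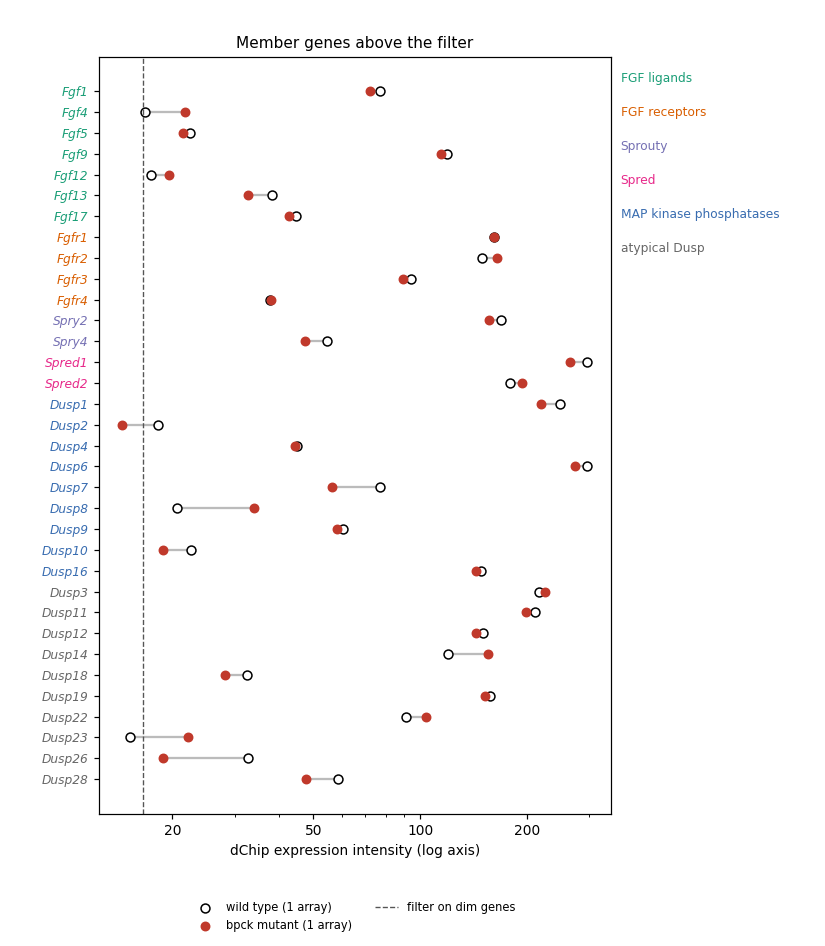
Expression intensity (log axis) of the 34 member genes above the filter, with wild type as open circles and mutant as filled circles, 1 array each and no error bars because there were no replicates. Positions are to be compared within a row only, and the longest connecting lines belong to Dusp8 (20.6 and 34.03) and Dusp26 (32.6 and 18.8).

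Among the ligands, 7 of 22 passed the filter, and all 7 lay within 1.3-fold between the samples. Fgf9, a ligand of nephron progenitors made also by the ureteric bud, read 119 in wild type and 114 in mutant, and its second probe set 27.9 and 28.9. The log2 differences of these probe sets, -0.059 and 0.052, had opposite signs and were smaller than the spread between probe sets of 1 gene. Fgf1, a ligand able to bind all the receptors, read 77.1 and 72.0 on its brightest probe set, a log2 difference of -0.099. Fgf17, of the FGF8 subfamily, read 44.6 and 42.6, and Fgf5, a regulator of hair growth, read 22.4 and 21.5. These 4 genes were slightly lower in the mutant with intensities as deposited, but Fgf5, Fgf9 and Fgf17 turned slightly higher when array medians were set equal, and Fgf5 also under quantile scaling.

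Fgf4, a ligand of the early embryo and limb bud, was the one farthest higher among those above the filter, with 16.8 in wild type and 21.7 in mutant, a log2 difference of 0.37. Its wild-type value lay just over the filter, and its 3 other probe sets lay below it. The intracellular FGFs do not act through receptors but bind sodium channels, chiefly in neurons. Of these, Fgf12 read 17.3 and 19.5, and Fgf13 38.1 and 32.7, a log2 difference of -0.22. The other probe set of Fgf12, below the filter, read 6.58 and 14.8, 2.25-fold higher. A second probe set of Fgf13, below the filter, read 10.7 and 2.64, at least 2.55-fold lower. The Fgf13 difference, opposite in direction to that of the dim Fgf12 probe set, stood beside the neuroendocrine granule genes Chga (94.1 and 1.19) and Chgb (216 and 4.51). The part of adrenal or neuroendocrine tissue in it was not tested. In whole tissue, fewer cells of a type and less RNA per cell cannot be told apart.

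The other 15 ligands read below the filter in both arrays. They included Fgf8 (12.2 in wild type and 14.9 in mutant), Fgf7 (10.4 and 9.44) and Fgf10 (3.63 and 4.99), ligands of early nephron and mesenchyme. Fgf20, the nephron progenitor ligand, read 1 in wild type, the lowest value in the file, and 6.22 in mutant, at least 1.48-fold higher. Fgf18, a ligand of bone and lung growth, read 7.33 and 12.3, 1.68-fold higher, and Fgf6, a ligand of muscle, 2.65 and 6.69, at least 1.59-fold higher. Fgf3 read 8.85 and 12.7, Fgf22 7.81 and 11.3, Fgf16 4.98 and 6.19, and Fgf11 14.5 and 11.2. Of the 15 dim ligands 11 were higher, 2 (Fgf7 and Fgf11) lower, and Fgf2 (1.19 and 1) and Fgf14 (1 and 3.45) under the floor in both arrays. In this range large ratios are common, as 21.3% of all 7514 genes below the filter differed by at least 1.5-fold. Among the dim ligands Fgf6 and Fgf18 did. By direction, 2564 of the 7514 genes were higher (34.1%), 2961 lower and 1989 equal after the floor. A larger share of the dim ligands was thus higher, which was not tested. The endocrine ligands Fgf15, Fgf21 and Fgf23 read 10.6 and 11.3, 2.18 and 4.27, and 3.34 and 5.90.

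**Figure D2:**
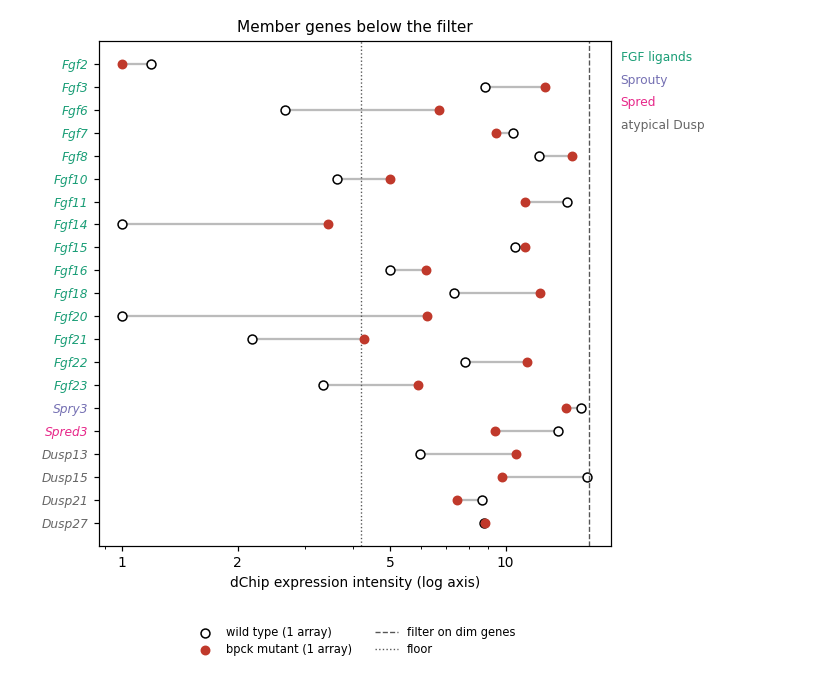
Expression intensity (log axis) of the 21 member genes below the filter, with wild type as open circles and mutant as filled circles, 1 array each. The dotted line is the floor of 4.2 and the dashed line the filter of 16.53. Fgf6, Fgf10, Fgf20, Fgf21 and Fgf23 lie under the floor in wild type only, and Fgf2 and Fgf14 in both arrays.

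All 4 receptors passed the filter and were within 1.2-fold on their brightest probe sets. Fgfr1, the receptor of nephron progenitors and mesenchyme, read 161 in wild type and 162 in mutant. Its 2 dimmer probe sets read 16.3 and 19.5, and 17.3 and 21.8, log2 differences of 0.26 and 0.34. Fgfr2, the receptor of the ureteric bud, was higher in the mutant on both probe sets, with 150 and 165 on the brighter and 28.1 and 33.9 on the dimmer. Its log2 differences were 0.14 and 0.27. Fgfr3 read 94.2 and 89.3, a log2 difference of -0.078.

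Among probe sets that themselves passed the filter, those of Fgfr4 lay farthest apart of any member. Its brightest probe set read 37.8 and 38.04, whereas the next brightest read 23.6 and 9.84, a log2 difference of -1.26. Of the 56 member probe sets above the filter, 1 was at least 1.5-fold higher and 2 lower, where 2.25% and 3.85% of all probe sets were (6.1% either way). This one of Fgfr4, which passed the filter through the wild-type array alone, reached 2-fold. No other did, against 0.528% higher, 0.741% lower and 1.27% either way among all probe sets. The 3 other probe sets of Fgfr4 lay below the filter, at 12.8 and 11.4, 4.47 and 2.83, and 2.79 and 2.18. The probe sets of Fgfr4 were designed on 3 different sequence records, and the files used here do not say which transcript form each detects. The dim second probe set of Fgfr3 read 1 and 7.30, at least 1.74-fold higher, opposite in direction to the brighter one.

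**Figure D3:**
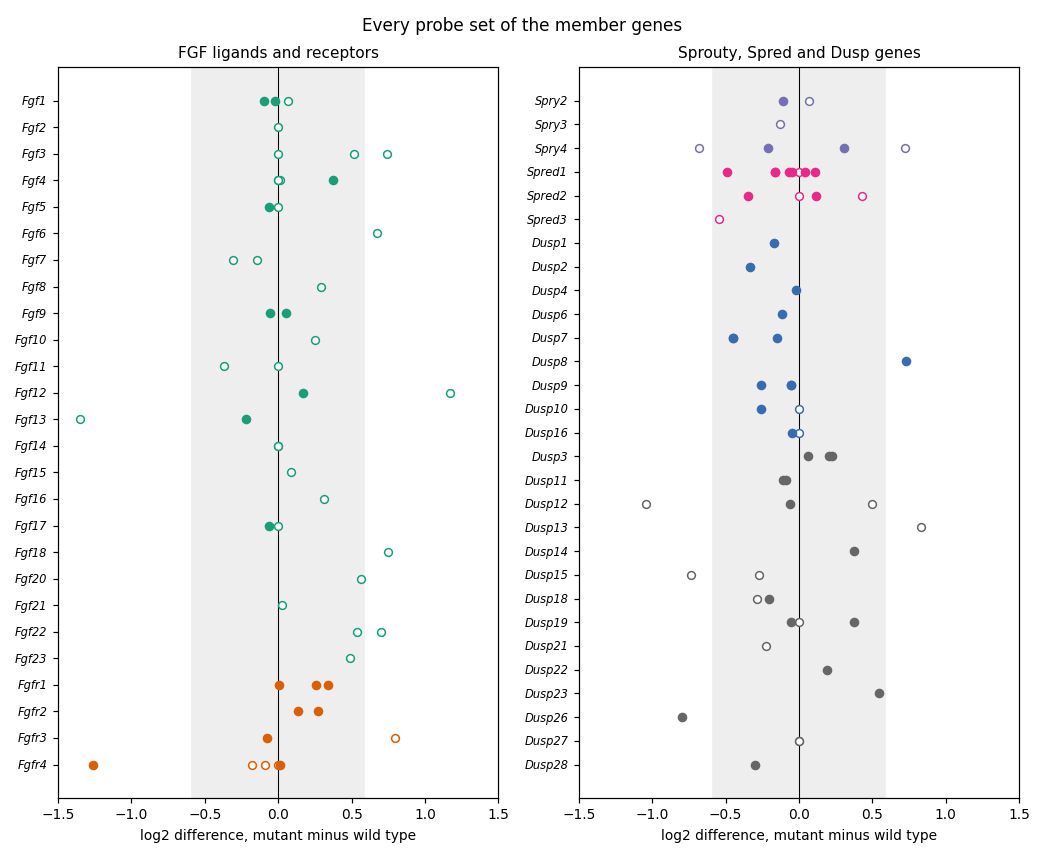
Log2 difference (mutant minus wild type) of all 109 member probe sets, 1 row per gene, with filled points above the filter and open points below it; probe sets under the floor in both arrays stand at 0. The grey band marks less than 1.5-fold, and the filled points outside it belong to Fgfr4, Dusp8 and Dusp26.

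Most of the feedback inhibitors read lower in the mutant, by small amounts, with intensities as deposited and under each of 3 scalings. Of the 13 Sprouty, Spred and MAP kinase phosphatase genes above the filter 11 read lower, or 84.6%, where 51.9% of all genes did, and their median log2 difference was -0.12. The exceptions were Spred2 and Dusp8. This pooled count was chosen after the data were seen, and 1 of the 11, Dusp2, passed the filter through the wild-type array alone. With array medians set equal, which moves all genes up by 0.073, 8 of the 13 were lower (61.5%), where 35.2% of all genes were. The median was then -0.042, beside 0.067 for all genes, and Dusp4, Dusp9 and Dusp16 turned slightly higher. Under quantile and loess scaling 10 were lower (76.9%), where 49.5% and 48.5% of all genes were. None of the 11 reached 1.5-fold, and these genes share 1 pair of samples, so the count has no error of its own.

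Sprouty proteins block receptor tyrosine kinase signalling on the way to Ras and Raf. Spry2 read 169 (wild type) and 157 (mutant), a log2 difference of -0.11, while its second probe set, below the filter, read 12.1 and 12.7. Spry4 read 54.7 and 47.2 on its brightest probe set, a difference of -0.21, but 16.6 and 20.5 on another, a difference of 0.31. Its direction therefore depended on the probe set. Spry3 stayed below the filter with 15.7 and 14.4.

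Spred proteins bind Ras and bring the Ras inhibitor neurofibromin to the membrane. Spred1, with the most probe sets of any member, read 296 (wild type) and 265 (mutant) on the brightest, a log2 difference of -0.16. Over its 7 probe sets above the filter the differences ran from -0.49 to 0.11, 5 of them lower and 2 higher. Spred2 read 179 and 194, a difference of 0.12, and 25.3 and 19.9 on a dimmer probe set, a difference of -0.35. Spred3 was below the filter at 13.7 and 9.39.

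Nuclear, inducible phosphatases are made within minutes of MAP kinase activation. Dusp1, the archetype of these, read 248 and 220 (wild type, then mutant), a log2 difference of -0.17. Dusp2, best known from immune cells, read 18.2 and 14.4, and Dusp4 45.0 and 44.3. Dusp4 turned slightly higher under all 3 scalings (array medians set equal, quantile and loess), and Dusp1 and Dusp2 did not.

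Cytoplasmic phosphatases act mainly on ERK. Dusp6, widely used as a readout of FGF signalling, read 296 and 273, a log2 difference of -0.12, 1.08-fold lower. Dusp7 was the farthest lower of the inhibitors above the filter, with 77.0 against 56.4 in the mutant, a log2 difference of -0.45, 1.37-fold. All 3 of its probe sets were lower, at 32.1 and 23.5, and 26.3 and 23.7 (a log2 difference of -0.15), on the others. It was lower under all 3 scalings (-0.38 to -0.43). All 3 probe sets have names ending in _x_at or _a_at, so Dusp7 drops out when such probe sets are removed. Dusp9 read 60.6 and 58.4, with log2 differences between -0.26 and -0.054 over its 3 probe sets.

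Of the phosphatases that prefer JNK and p38, Dusp8 stood apart from the others of its family. Its single probe set gave 20.6 for wild type and 34.03 for mutant, a log2 difference of 0.73, 1.66-fold higher. In the authors' deposited table its fold had a lower bound of 1.45 and an upper bound of 1.93, bounds that come from the probes of 1 array per group. It remained higher under all 3 scalings (0.78 to 0.80). Dusp10 read 22.5 and 18.8, and Dusp16 149 and 144, log2 differences of -0.26 and -0.050.

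The promoters of Dusp8, the phosphatase higher in the mutant, and of Dusp1 and Dusp7, which were lower, are shown to set their regulatory letters side by side. RefSeq promoters (build GRCm38.p6) were matched for 10 of the 13 inhibitors above the filter. In the 250 bases before each start, 4 motifs of ERK and cAMP responsive factors were searched on both strands. These were the ETS motif CCGGAA, the cAMP response element TGACGTCA, the AP-1 site TGANTCA and the CArG box. Other forms of an ETS site were not searched. No match overlapped another in the promoters shown. Capitals mark matches.
Dusp8, chr7:142095285-142095534, minus strand: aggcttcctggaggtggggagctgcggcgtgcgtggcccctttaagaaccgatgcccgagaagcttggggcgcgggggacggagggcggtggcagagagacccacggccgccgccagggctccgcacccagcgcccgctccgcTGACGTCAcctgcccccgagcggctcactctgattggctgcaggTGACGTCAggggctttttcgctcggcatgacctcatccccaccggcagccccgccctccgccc
Dusp1, chr17:26508473-26508722, minus strand: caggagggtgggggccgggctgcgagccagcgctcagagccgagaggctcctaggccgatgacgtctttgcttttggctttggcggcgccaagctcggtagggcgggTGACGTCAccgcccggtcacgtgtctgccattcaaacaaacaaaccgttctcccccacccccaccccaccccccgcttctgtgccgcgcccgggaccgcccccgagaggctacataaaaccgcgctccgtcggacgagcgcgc
Dusp7, chr9:106368382-106368631, plus strand: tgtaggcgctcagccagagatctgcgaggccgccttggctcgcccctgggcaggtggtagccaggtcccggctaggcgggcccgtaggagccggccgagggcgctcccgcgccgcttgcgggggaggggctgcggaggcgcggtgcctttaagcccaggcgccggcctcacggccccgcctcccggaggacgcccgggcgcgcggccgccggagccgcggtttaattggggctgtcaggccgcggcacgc
The cAMP response element occurred in 2 of the 10 promoters, against 1.55% of the 32851 promoters in the table. Dusp8 held 2 matches, beginning 107 and 63 bases before the start, and Dusp1 held 1, beginning 143 bases before it. The pair with the motif thus lay on opposite sides of 0 in the arrays. None of the 10 held the letters CCGGAA, the AP-1 site or the CArG box, which were found in 12%, 6.75% and 1.47% of all promoters. This says nothing of other forms of an ETS site. A match is a description of letters and not a bound site.

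The atypical Dusp genes encode small phosphatases with varied substrates, most without a role in ERK feedback. Of the 14, 10 passed the filter. With intensities as deposited 4 were higher and 6 lower (60% lower, against 51.9% of all genes), at a median difference of -0.057. With array medians set equal 6 were higher and 4 lower (60% higher, against 64.8% of all genes). Of those above the filter Dusp23, which reached it in the mutant alone, was the farthest higher, with 15.1 in wild type and 22.1 in mutant, a log2 difference of 0.54, and passed 1.5-fold once the arrays were rescaled by any of the 3 methods (0.60 to 0.62). Dusp14, which acts on MAP kinases and on T cell signalling proteins, read 120 and 156, a difference of 0.38. Dusp22 read 91.2 and 104, and Dusp3, also called VHR, 216 and 225. All 3 probe sets of Dusp3 were higher, by 0.060 to 0.23 on the log2 scale.

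Dusp26, known as a neuroendocrine-associated phosphatase, was the member gene farthest lower. Its single probe set gave 32.6 for wild type and 18.8 for mutant, a log2 difference of -0.79, 1.73-fold lower. The authors' deposited table gave its fold as -1.73 with bounds of -1.61 and -1.87. Of the 11 adrenal and neuroendocrine markers 10 were lower in the same array, 9 of which reached the filter in wild type alone. Hsd3b1, a steroid enzyme, read 205 and 2.77, none of the markers was at 0 and 4 of them lay under the floor in the mutant (Hsd3b1, Chga, Cyp11b1 and Scg2). Their part in the Dusp26 value was not tested.

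The remaining atypical genes were close between the samples or dim. Dusp11, an RNA phosphatase, read 211 and 199, Dusp12 151 and 144, Dusp18 32.4 and 28.1, and Dusp28 58.8 and 47.7. Dusp19 read 158 and 152 on its brightest probe set and 42.2 and 54.6 on another, in opposite directions. Dusp13 (5.96 and 10.6), Dusp15 (16.3 and 9.78), Dusp21 (8.70 and 7.45) and Dusp27 (8.79 and 8.81) did not pass the filter. Dusp15 lay just under it, and Fgf4 just over it.

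**Figure D4:**
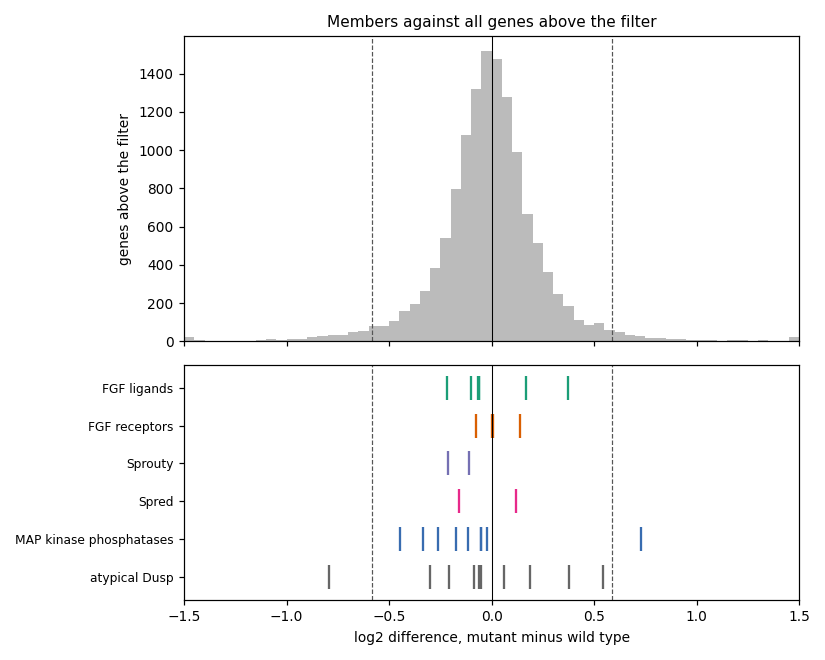
The upper panel counts all 13146 genes above the filter by log2 difference (mutant minus wild type), with genes beyond 1.5 either way in the end bins, and the lower panel marks each of the 34 members by family. Dashed lines stand at 1.5-fold. Dusp8 and Dusp26 are the members outside them. With intensities as deposited 8 of 9 MAP kinase phosphatases lie left of 0, where 51.9% of all genes do. With array medians set equal 5 of 9 were lower, where 35.2% of all genes were.

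The rest of the pathway was examined in a list of 72 other genes, of which 71 were measured and 65 passed the filter. Of these, 35 were higher and 30 lower (median difference 0.015 on the log2 scale), that is 53.8% higher against 48% of all genes, and with array medians set equal 66.7% were higher against 64.8% of all genes. Among them 1 was at least 1.5-fold higher, the immediate early gene Fos (17.3 in wild type and 30.5 in mutant, 1.77-fold), and 1 at least 1.5-fold lower, the Ras GTPase-activating protein Rasal1 (55.9 and 34.9, 1.60-fold). These counts compare with 2.01% and 2.57% of all genes. The 22 genes of the Ras and MAP kinase cascade had a median of -0.0059, and the farthest apart on brightest probe sets, Rps6ka3, differed 1.21-fold. Other probe sets lay farther out, those of Araf above the filter from -0.45 to 0.59 on the log2 scale.

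Co-receptor and docking genes had a median of 0.015, with 8 of 15 higher, where 48% of all genes were. Kl, the co-receptor of FGF23 in the distal tubule, read 570 and 683, and Klb, its relative for FGF21, was below the filter at 5.72 and 13.0, 2.28-fold higher. Heparan sulfate genes were divided, 6 higher and 6 lower, from Sulf1, which strips sulfate (72.8 and 56.4), to the glypican Gpc4 (558 and 700). Probe sets of Gpc4 above the filter ran in both directions, from -0.23 to 0.33 on the log2 scale. Gpc3 read 935 and 1063, and Sdc4 791 and 683. On brightest probe sets all heparan sulfate genes were within 1.3-fold.

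Genes that ERK induces were mixed. Above the filter 7 of 11 were higher (63.6%, median log2 difference 0.096), where 48% of all genes were. With array medians set equal 9 of 12 were higher, where 64.8% of all genes were. Besides Fos, Egr1 read 175 in wild type and 216 in mutant, and Hbegf 114 and 139. Etv5, a target of FGF and Ret signals at the ureteric tip, read 97.5 and 91.2, Etv1 69.5 and 56.1, and Etv4 was below the filter at 11.5 and 14.0. Ccnd1, the cyclin of the G1 phase, read 1141 and 1219. Of 5 other inhibitors 3 were higher (median 0.040), and Rasal1 and Errfi1 were lower. Il17rd, also called Sef, read 118 and 121, and Errfi1 325 and 274. The difference between these groups and the feedback inhibitors was not tested.

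**Figure D5:**
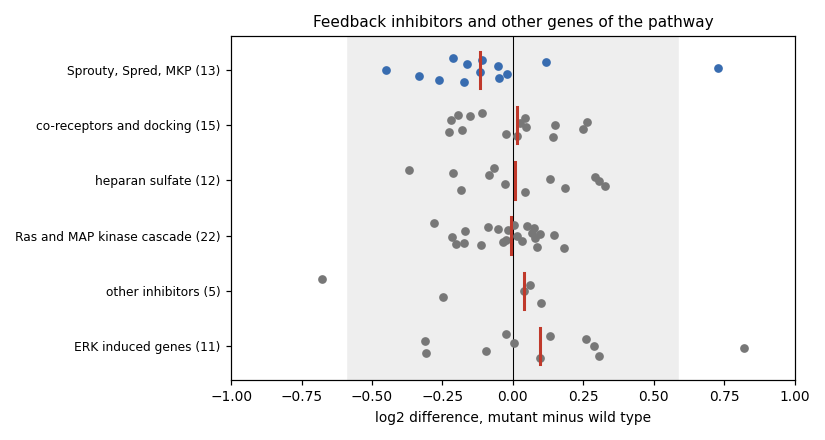
Log2 difference (mutant minus wild type) of the 13 feedback inhibitors (MKP stands for MAP kinase phosphatases) and of the 65 other pathway genes above the filter, by group, with 1 point per gene, the number of genes in brackets and red lines at medians. The grey band marks less than 1.5-fold, and the medians run from -0.12 for the feedback inhibitors to 0.096 for the genes that ERK induces.

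Markers of kidney cell types were set beside these values, chiefly as summed intensities, which the brightest markers dominate. Nephron progenitor markers were higher for 6 of 9, with summed intensities of 1078 and 1122, of which Itga8, the brightest, read 761 and 616. Of the 8 above the filter, 1 of them through the mutant array alone, 5 were higher and 3 lower. Their median log2 difference was 0.82, with a range of -0.30 to 1.25. All 5 were at least 1.5-fold higher, where 2.01% of all genes were. Ureteric tip markers were higher for 3 of 5, with summed intensities of 366 and 385. All 7 podocyte markers were lower (summed intensity 1834 and 1329), as were 5 of 6 stromal markers (1568 and 1429). Proximal tubule markers were higher for 5 of 6 (4619 and 6256), and distal convoluted tubule markers lower for 4 of 5 (3516 and 2833). The exception among these 5 was Kl itself (570 and 683), which is part of both sums. Macrophage markers were higher for 3 of 4 (319 and 461), and endothelial markers lower for 4 of 5 (1294 and 1168). Within 1.2-fold lay 4 of 6 stromal and 4 of 5 endothelial markers. By direction, 48% of all genes above the filter were higher and 51.9% lower. The marker counts were not repeated with array medians set equal. The part of these cell types in the values of the FGF genes and inhibitors was not tested.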

How the data were processed

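RNA from 1 kidney sample per genotype was measured on 1 Affymetrix Mouse430_2 array each. The values used are intensity, the expression index that the authors computed with dChip, per the series' design text, and deposited on a linear scale. The authors' deposited table also holds standard errors, a signed fold and its bounds. No source used here states how background was subtracted or the arrays were normalised. The intensities summed to 5173132 in wild type and 5175900 in mutant, and the number of arrays limits their precision.

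Both deposited files held equal intensities in all 45037 probe sets. Of these, 37579 named 1 gene, 1467 several and 5991 none. Symbols were updated by Entrez ID from a RefSeq gene table (34316 matched). Values were used without further scaling, with the floor, filter and fold rules given above. Each log2 difference was computed from the deposited values after the floor. Every member may be named, with the pathway genes at least 1.5-fold apart and the 5 brightest of that list. Hbegf, Egr1, Etv1, Etv4, Etv5, Il17rd, Errfi1, Sulf1, Klb, Rps6ka3 and Araf were picked after their values were seen. So were the markers Slc34a1, Itga8, Cyp11a1, Cyp11b1, Scg2, Ddx3y and Eif2s3y. The members and lists were chosen with earlier results of these data known. Python 3.11.15, pandas 2.3.3 and statsmodels 0.14.6 were used.

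Alternatives were 3 scalings, other floors, a pseudocount, other filters, other choices of probe set and other rules for a call.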

Additional observations from a re-analysis of the deposited data

How the results depend on the processing

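No paired analysis was possible because there was 1 array per group. Of 152 comparisons of 14 counts and medians with their alternatives, 126 stayed within their spread or within 1.5 times the count, and 26 moved. That spread lay between member genes and was wide, so a median could change sign and still stay within it. With array medians set equal this held for FGF ligands (-0.059 to 0.014), atypical Dusp genes (-0.057 to 0.017) and Spred (-0.021 to 0.052). The medians of MAP kinase phosphatases and Sprouty stayed negative throughout, and that of the receptors positive. No member called at 1.5-fold changed direction. The count of member genes at least 1.5-fold higher, 1 as reported, was 2 with array medians set equal, quantile scaling, loess scaling or the mean of all probe sets, 4 with no filter, and 0 with a pseudocount of 32, a filter at the 75th percentile or the authors' lower bound. The count at least 1.5-fold lower, also 1, was 2 with the mean of all probe sets, no filter or probe sets in place of genes, and 0 with a pseudocount of 32, a filter at the 75th percentile or without _x_at, _s_at and _a_at probe sets, which removes the probe set of Dusp26. At 2-fold, probe sets in place of genes gave 1 lower, that of Fgfr4. Other pathway genes at least 1.5-fold higher were 2 with no filter and 0 with a pseudocount of 32 or a filter at the 75th percentile; those lower were 0 with the same pseudocount and with the 75th percentile filter. The median of all members turned from -0.061 to 0.013 with array medians set equal. With the mean of all probe sets the receptor median was 0.21 and the Sprouty value -0.022, on 1 gene; with array medians set equal the Sprouty median was -0.088, and with no filter that of Spred was -0.16. Of the feedback inhibitors, 5 of 6 were lower with the filter at the 75th percentile, where 50.4% of all genes were. This count was chosen after seeing the data. Of the 34 members above the filter, 26 kept their direction under all 3 scalings. Dim ligands depended on the floor: for Fgf20 the log2 difference was 2.64 without one, 0.57 as reported and 0 with a floor at the 40th percentile. Values near the floor carry no firm ratio, and 53 of 109 member probe sets lay below the filter.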
